A study of Mus with 5 samples.

Results

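The genes described are 8 markers of mural cells, the pericytes and smooth muscle cells that wrap blood vessels, among the 12857 genes measured in embryonic mouse hearts. They are the pericyte markers *Pdgfrb*, *Abcc9*, *Kcnj8*, *Rgs5* and *Cspg4* and the smooth muscle markers *Acta2*, *Myh11* and *Tagln*. The 8 genes were chosen from known markers with measured values of the same genotype comparison in view, to ask whether mural markers are lower together in hearts with extra Bmp2. Their values in that comparison are therefore a description and not a test. All 8 are in the table of values and all 8 passed the filter on low values, which removed 0 genes.

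Pericytes sit on capillaries within the basement membrane, and smooth muscle cells form the contractile layer of arteries. In the heart, much of the coronary mural population descends from the epicardium, and endothelial platelet-derived growth factor recruits these cells to the growing vessels through the receptor that *Pdgfrb* encodes. Several of the usual markers are shared with other cells, and *Acta2* and *Tagln* in particular are also transcribed in immature cardiomyocytes and in mesenchyme.

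RNA came from hearts of mouse embryos at E14.5 with the atria removed. The transgenic group, *Nkx2.5* Cre/+*;Bmp2* tg/+, carries Cre at the *Nkx2.5* locus, active in cardiac progenitors and their descendants, and a *Bmp2* transgene in *Rosa26*. Cre removes a floxed β-Geo stop cassette, after which a CAG promoter drives *Bmp2*, an IRES and eGFP, in a line that goes back to 1 embryonic stem cell clone. The control group is labelled WT, and whether its pools carry Cre was not tested. A cross recorded for this line, of *Bmp2* tg/+ males to females homozygous for *Nkx2.5* Cre, gives only embryos with the Cre allele, but no source says that the WT pools came from it. If they lack Cre, the effects of the Cre allele and of the transgene cannot be told apart. Each library is a pool of 4 embryos, and there are 3 transgenic pools and 2 WT pools. The authors dropped 1 further WT pool for poor clustering with its group. The WT spread behind every error and call given here is thus that of pools kept for their likeness. The values are counts per 1000000 reads (CPM). The smallest gap between values in a library was 0.0956 to 0.134 CPM, and if that gap is the worth of 1 read, the 5 libraries hold between 7427905 and 10564780 reads and a count of 3 reads stands at 0.287 to 0.402 CPM. All numbers of reads given here rest on that reading of the gap.

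*Bmp2* itself measured 23.0, 27.1 and 23.3 CPM over transgenic pools 1, 2 and 3, against 14.1 and 10.2 CPM for WT. The groups did not overlap, in the direction of the labels, and the fitted log2 difference came to 0.99 with a standard error of 0.13 (limma adjusted p = 0.000712, from 7.27e-05 to 0.143 over the alternatives). *Bmp2* was not called in limma without the variance trend, where the highest of these p-values stands. *Ryr2*, the calcium release channel of cardiomyocytes, was the only gene of the 10 cardiomyocyte markers whose identifier is paired with a name, and it was at or above 425 CPM in every pool.

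The mural markers were not all lower together. In 5 of the 8 (*Pdgfrb*, *Abcc9*, *Kcnj8*, *Rgs5* and *Myh11*) every transgenic pool was below both WT pools, in *Cspg4* and *Acta2* the groups overlapped, and in *Tagln* all transgenic pools exceeded both WT pools. By type, 4 of the 5 pericyte markers and 1 of the 3 smooth muscle markers lay below WT in every transgenic pool. Over all genes, 18.0% had every transgenic pool below both WT pools and 17.7% had every transgenic pool above them. Nothing is read from the counts of markers beside these shares, since the markers were chosen with values of the same contrast known. The median log2 fold change (transgenic minus WT) was -0.31 for the 8 markers, -0.38 for the pericyte markers and -0.04 for the smooth muscle markers, beside 0.00452 for all genes. The pericyte median is the value of *Kcnj8*, which had the widest standard error of the 5 (0.14) and was not called. The smooth muscle median is the value of *Acta2*, which lies between *Myh11* and *Tagln*, and *Acta2* turned to 0.03 without transgenic pool 3. Of the 13 alternatives, 9 gave fold changes of their own, and in these the sign held for each marker except *Acta2*. Whether the pericyte and the smooth muscle markers differ from each other was not tested. In bulk RNA of hearts without atria, fewer cells of a type and less RNA per cell cannot be told apart.

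*Pdgfrb* (ENSMUSG00000024620, chromosome 18 of GRCm38, 61045127 to 61085067) encodes the receptor by which mural cells are recruited. It had 77.1, 75.4 and 79.8 CPM as its transgenic values (pools 1, 2 and 3) beside 90.5 and 92.4 CPM for WT. The spread within each group was small and the groups were apart, with transgenic and WT means of 77.4 ± 2.23 (SD, n = 3 pools) and 91.4 ± 1.31 CPM (SD, n = 2 pools) and a log2 fold change of -0.24 (standard error 0.06).

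*Rgs5* (ENSMUSG00000026678, chromosome 1, 169655501 to 169695813) encodes a protein that speeds the shut-off of G protein signals and is a classical pericyte marker. Its values were 52.6, 55.6 and 68.3 CPM for transgenic pools against 83.7 and 79.8 CPM for WT pools. The groups were apart, although transgenic pool 3 lay closer to WT than the other two, and the coefficient of variation among transgenic pools was 14.1%, against a counting error of 4.39% at its lowest number of reads, 518. The transgenic mean was 58.8 ± 8.32 (SD, n = 3) and the WT mean 81.7 ± 2.81 CPM (SD, n = 2), which makes a log2 fold change of -0.48 (standard error 0.09).

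*Abcc9* and *Kcnj8* encode the SUR2 and Kir6.1 subunits of the vascular ATP-sensitive potassium channel, the former the regulatory subunit and the latter the pore. SUR2 also serves channels of cardiomyocytes, so *Abcc9* is not a marker of mural cells alone. The genes are neighbours on chromosome 6 of GRCm38, *Kcnj8* (ENSMUSG00000030247) from 142564837 to 142571614 and *Abcc9* (ENSMUSG00000030249) from 142587862 to 142702766, with 16247 bases and 0 annotated genes between them. *Abcc9* measured 164, 147 and 170.3 CPM over transgenic pools 1, 2 and 3, against 207 and 218 CPM for WT. *Kcnj8* had 11.3, 8.91 and 10.9 CPM as its transgenic values (pools 1, 2 and 3) beside 14.6 and 12.6 CPM for WT. For both genes the groups did not overlap, and transgenic pool 2 was the lowest. For *Kcnj8*, however, the gap between transgenic pool 1 and WT pool 2 was smaller than the difference between the WT pools. *Kcnj8* was not called (limma adjusted p = 0.175). The means of *Abcc9* were 160.5 ± 12.1 CPM for transgenic hearts (SD, n = 3) and 212.3 ± 7.55 CPM for WT (SD, n = 2), and its log2 fold change was -0.41 (standard error 0.07). That of *Kcnj8* was of like size, -0.38 (standard error 0.14). The wider error of *Kcnj8* goes with few reads, 83 to 138 per pool, at which the counting error of the lowest pool is 10.98%, beside a variation of 12.3% among transgenic pools and 10.4% between WT pools. The ratio of *Abcc9* to *Kcnj8* CPM was 14.54, 16.5 and 15.7 for transgenic pools against 14.2 and 17.3 for WT pools, so the groups overlapped in the balance of the neighbouring genes.

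*Cspg4* (ENSMUSG00000032911, chromosome 9, 56865104 to 56899870) encodes the proteoglycan NG2 on the surface of pericytes. It did not share the lower values of the other pericyte markers. It measured 95.9, 86.7 and 83.5 CPM over transgenic pools 1, 2 and 3, against 94.8 and 88.7 CPM for WT. The highest and the lowest pool of all were both transgenic, and the log2 fold change was -0.05 (standard error 0.07). With 1 pool left out it ranged from -0.107 (without transgenic pool 1) to -0.0024 (without WT pool 1). The ratio of *Rgs5* to *Cspg4* was 0.548, 0.641 and 0.817 for transgenic pools against 0.883 and 0.899 for WT pools, without overlap. The ratio of *Rgs5* to *Pdgfrb*, at 0.682, 0.738 and 0.856 against 0.925 and 0.864, was also lower in every transgenic pool, narrowly so in pool 3. These ratios, like all others given, were chosen after the values were seen, and they do not change with the scaling of a library. They depend on transcript length too, so they compare pools and not the levels of the genes.

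**Figure D1:**
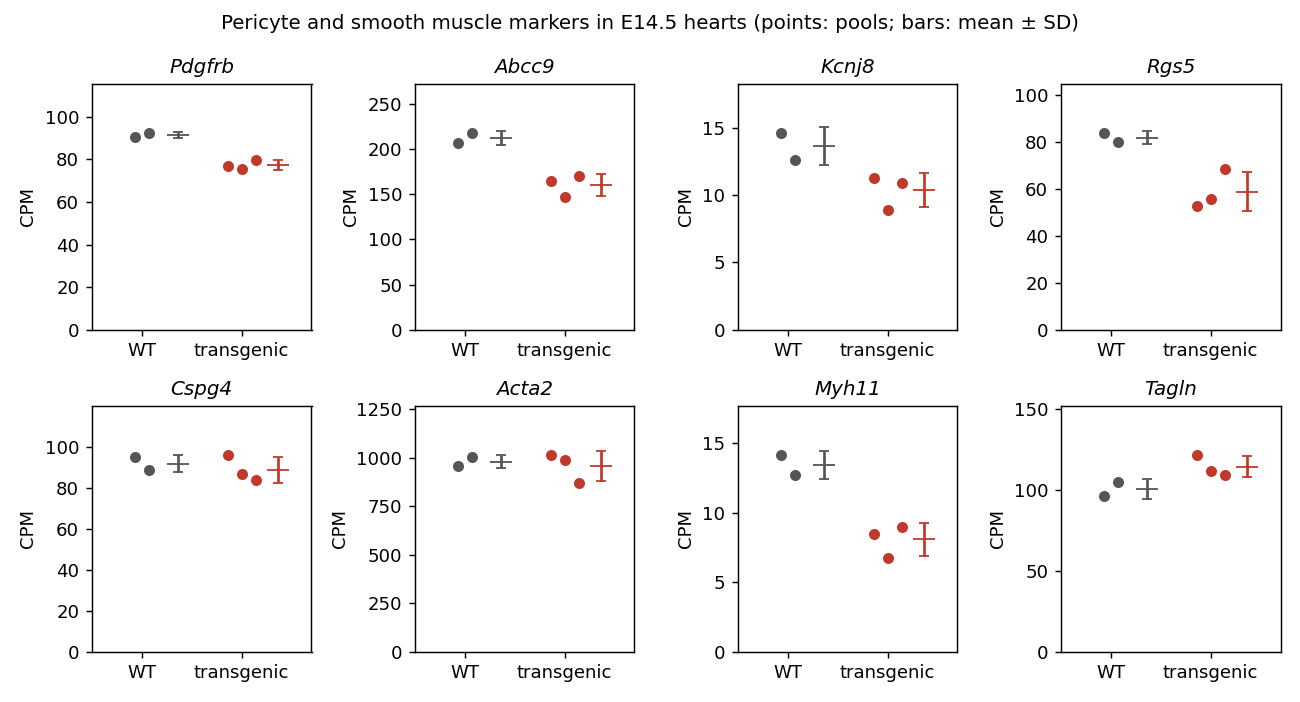
CPM of the 8 mural markers in each pool, 1 panel per gene with its own vertical axis from 0; points are the 2 WT and 3 transgenic pools and bars give the mean and SD of each group. Transgenic pools are below both WT pools for *Pdgfrb*, *Abcc9*, *Kcnj8*, *Rgs5* and *Myh11*, overlap with WT for *Cspg4* and *Acta2*, and are above WT for *Tagln*.

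The smooth muscle markers went separate ways. *Myh11* (ENSMUSG00000018830, chromosome 16, 14194527 to 14292188) encodes the smooth muscle myosin heavy chain, the most restricted of the 3 to differentiated smooth muscle. It had 8.51, 6.76 and 9.00 CPM as its transgenic values (pools 1, 2 and 3) beside 14.2 and 12.7 CPM for WT. The groups were apart and *Myh11* had the largest difference of the 8 markers, with a mean of 13.5 ± 1.013 CPM for WT (SD, n = 2) against 8.09 ± 1.18 CPM for transgenic hearts (SD, n = 3), or a log2 fold change of -0.71 (standard error 0.15). It ranked 74 from the lowest log2 fold change among all 12857 genes. It also rested on the fewest reads, 63 to 134 per pool, and its variation among transgenic pools (14.55%) was little above the counting error at 63 reads (12.6%).

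*Acta2* (ENSMUSG00000035783, chromosome 19, 34240336 to 34255585) encodes smooth muscle α-actin. It measured 1015, 989 and 869 CPM over transgenic pools 1, 2 and 3, against 957 and 1006 CPM for WT. The groups overlapped, with the highest and the lowest value both in transgenic pools, and the log2 fold change of -0.04 (standard error 0.07) turned to 0.03 without transgenic pool 3.

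*Tagln* (ENSMUSG00000032085, chromosome 9, 45929628 to 45936058) encodes the actin-binding protein SM22α. It had 121.6, 112 and 109.3 CPM as its transgenic values (pools 1, 2 and 3) beside 96.2 and 104.8 CPM for WT. It was the only marker of the 8 with every transgenic pool above both WT pools, although the gap between transgenic pool 3 and WT pool 2 was smaller than the difference between the WT pools. The transgenic mean was 114 ± 6.44 CPM (SD, n = 3) and the WT mean 100.5 ± 6.09 CPM (SD, n = 2), a difference of 0.18 on the log2 scale (standard error 0.07), which ranged from 0.12 to 0.25 over the other ways of processing.

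Within the smooth muscle markers, *Myh11* was 0.839%, 0.684% and 1.04% of the *Acta2* CPM for transgenic pools against 1.48% and 1.27% for WT pools. Of the *Tagln* CPM it was 7.002%, 6.04% and 8.24% for transgenic pools against 14.7% and 12.1% for WT pools. In both ratios the groups were apart, so the marker of the differentiated cell was lower relative to the broader contractile genes of the same library. The summed CPM of the 3 smooth muscle markers, of which *Acta2* made up 88.0% to 89.7%, was 1145, 1107 and 988 for transgenic pools against 1067 and 1123 for WT pools, with overlap. The summed CPM of the 5 pericyte markers, of which *Abcc9* made up 39.3% to 44.3%, was 401, 374 and 413 in the transgenic pools and 491 in each WT pool, without overlap.

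With limma and Benjamini-Hochberg adjustment over all 12857 genes, at a threshold of 0.05, 362 genes (2.82%) were called, 205 lower (1.59%) and 157 higher (1.22%) in transgenic hearts. With the libraries rescaled to the same total, the split was 251 lower and 125 higher. Genes called higher were the majority in 3 alternatives, with 9 lower and 36 higher without WT pool 1, 10 lower and 33 higher without WT pool 2, and 0 lower and 10 higher by limma without the variance trend, where 14.4% of genes had an unadjusted p under 0.05. Of the 8 markers, *Abcc9*, *Rgs5* and *Myh11* were among the genes called lower and 0 were called higher by limma, while 6 markers had an unadjusted p under 0.05, as did 17.7% of all genes, with *Tagln* among the 6 in the higher direction. Nothing is read from these counts either. Without WT pool 1 or without WT pool 2, limma called 0 of the 8 markers, with 4 and 6 at an unadjusted p under 0.05, beside 12.3% and 11.7% of all genes. Without transgenic pool 2 it called *Abcc9* and *Rgs5* and not *Myh11*, whose log2 fold change was then -0.59. *Pdgfrb* lay close to the threshold (limma adjusted p = 0.0519) and was not called here. The authors' list of differential genes, made with edgeR at an adjusted p under 0.05, does hold *Pdgfrb*, along with *Abcc9*, *Rgs5* and *Myh11*. Limma called *Pdgfrb* in 4 of the 13 alternatives. These were without transgenic pool 3 (log2 fold change -0.26), with the pool number as a block, with a mean of at least 5 CPM and with equal totals.

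**Figure D2:**
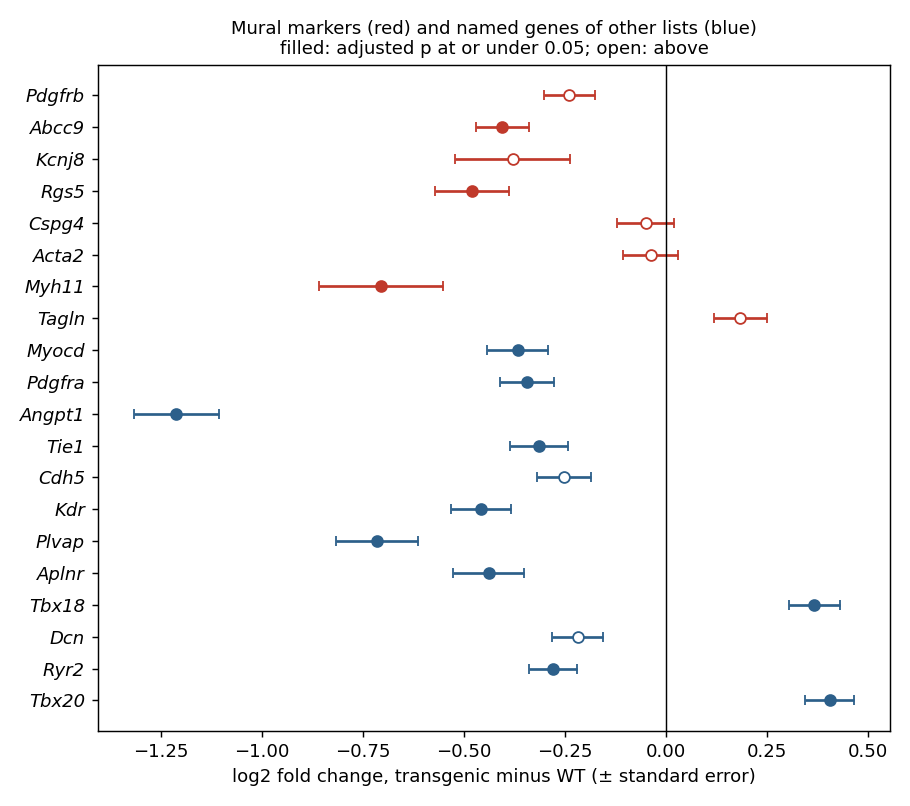
Log2 fold changes (transgenic minus WT, horizontal axis) of the 8 mural markers in red and of the 12 named genes of the other lists in blue, with bars for the standard error; filled points have a limma adjusted p at or under 0.05. *Myh11* lies lowest of the markers at -0.71, *Tagln* highest at 0.18, and *Acta2* near 0 at -0.04, which turns to 0.03 without transgenic pool 3.

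The markers could be set beside few other genes of mural cells. Names are paired with identifiers for only 12 of the 116 other genes in the marker lists. All of these names come from a list of genes that the authors found to differ in these libraries, so the directions and calls are not independent evidence. The 12 comprise 0 of 15 other pericyte markers, 1 of 20 other smooth muscle genes, 3 of 18 signals of mural recruitment, 4 of 14 endothelial markers, 3 of 14 epicardial and fibroblast markers, 1 of 10 cardiomyocyte markers and 1 of 8 valve markers. *Pdgfra* stands in the recruitment and the fibroblast list. For the lists of 10 blood and 7 glial markers there was 0, and of the 4 subunits of ATP-sensitive potassium channels there were 2, both of them markers described here. Limma called 8 of the 12 lower and 2 higher, beside 1.59% and 1.22% of all genes, and 2 were not called. Nothing is read from these counts, given where the names come from.

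*Myocd* encodes myocardin, a coactivator of serum response factor that turns on smooth muscle genes and is also made in cardiomyocytes. It measured 98.5, 81.5 and 85.2 CPM over transgenic pools 1, 2 and 3, against 113 and 115 CPM for WT. It fell in transgenic hearts, by a log2 fold change of -0.37 with a standard error of 0.07 (limma adjusted p = 0.0136, from 0.00263 to 0.225 over the alternatives), and like *Myh11* it had its lowest value in transgenic pool 2.

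Among the signals of mural recruitment, all 3 with a name fell. *Angpt1*, the Tie2 ligand that mural cells and myocardium make and that steadies vessels, had 21.6, 18.4 and 24.1 CPM as its transgenic values (pools 1, 2 and 3) beside 50.01 and 49.7 CPM for WT. Its log2 fold change of -1.21 (limma adjusted p = 8.15e-06, standard error 0.11) was larger in size than that of any of the 8 mural markers. *Tie1*, an endothelial receptor of the same pathway, had a log2 fold change of -0.31, and *Pdgfra*, the receptor of fibroblasts and valve mesenchyme that is related to *Pdgfrb*, had one of -0.34. *Tie1* was not called without transgenic pool 2 (log2 fold change -0.23) or with quantile normalization (-0.31), and over the 13 alternatives it was called in 8. Without WT pool 1, limma called 1 of the 12 named genes, *Angpt1*, and without WT pool 2 it called 2, *Angpt1* and *Tbx20*.

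Of the 14 endothelial markers, the 4 with a name are *Cdh5*, *Kdr*, *Plvap* and *Aplnr*. They summed to 444, 379.5 and 447 CPM in the transgenic pools and to 554 and 546 CPM in the WT pools, with *Cdh5* the largest contribution and none of the 4 at 0. *Kdr*, *Plvap* and *Aplnr* fell, with log2 fold changes of -0.46, -0.72 and -0.44, and *Cdh5*, which encodes VE-cadherin, had -0.25 and was not called (limma adjusted p = 0.0563, from 0.00978 to 0.372 over the 13 alternatives, in 5 of which it was called, those without transgenic pool 1 or 3 among them). The ratio of *Pdgfrb* to *Cdh5* was 0.322, 0.369 and 0.338 for transgenic pools against 0.329 and 0.351 for WT pools. The ratio of *Rgs5* to *Kdr* was 0.385, 0.496 and 0.516 for transgenic pools against 0.486 and 0.454 for WT pools. In these pairs the groups overlapped, but that depended on the partner. Of all 20 ratios of a pericyte marker to one of the 4 endothelial genes, 7 overlapped between groups, 3 were lower in every transgenic pool and 10 were higher. The 3 lower ones were those of *Abcc9*, *Kcnj8* and *Rgs5* to *Cdh5*, while all 5 ratios to *Plvap* were higher. *Plvap* had a lower log2 fold change than any pericyte marker, so the ratios restate values already given and are not separate comparisons. The ratio of *Rgs5* to *Cdh5*, for example, was 0.220, 0.273 and 0.2895 for transgenic pools against 0.304 and 0.303 for WT pools, and that of *Rgs5* to *Plvap* was 1.34, 1.55 and 1.41 against 1.27 and 1.15. The part of endothelial RNA in the mural values was not tested.

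Genes of other cell types did not all move the same way. *Ryr2* measured 480.3, 425 and 459 CPM over transgenic pools 1, 2 and 3, against 548 and 556 CPM for WT, a log2 fold change of -0.28. The ratio of *Abcc9* to *Ryr2* was 0.342, 0.346 and 0.371 for transgenic pools against 0.378 and 0.391 for WT pools, lower without overlap. *Abcc9* was thus lower also relative to that cardiomyocyte gene, but this depended on the marker. For *Pdgfrb*, *Kcnj8* and *Rgs5* the ratio to *Ryr2* overlapped between groups, and for *Cspg4* it was higher in every transgenic pool. *Tbx18*, a transcription factor of the epicardium and of mural cells, rose, from 65.3 and 69.7 CPM in the WT pools to 87.3, 88.1 and 86.2 CPM in the transgenic pools. *Dcn*, the fibroblast proteoglycan decorin, had a log2 fold change of -0.22 and was not called, except in 2 of the 13 alternatives (without transgenic pool 3 and with the pool number as a block), and *Tbx20*, a factor of valve mesenchyme and myocardium, rose with 0.41. The ratio of *Pdgfrb* to *Pdgfra* was 0.756, 0.819 and 0.759 for transgenic pools against 0.719 and 0.727 for WT pools, so *Pdgfrb* was higher relative to *Pdgfra* in each transgenic pool. That direction also depended on the marker. The ratio to *Pdgfra* was higher in every transgenic pool for *Cspg4* too, but lower in every transgenic pool for *Abcc9*. For *Kcnj8* and *Rgs5* it overlapped between groups. The part of epicardial, fibroblast or cardiomyocyte RNA in the mural values was not tested.

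A single pool held the lowest values of many of these genes. Transgenic pool 2 was the lowest in 4 of the 5 mural markers that lay below WT, the exception being *Rgs5*, and in 9 of the 10 named genes of the other lists that did. Among all 2320 genes with every transgenic pool below both WT pools, it was the lowest in 52.4%. Without that pool the median log2 fold change of the 8 markers was -0.25, and its part in the result beyond that was not tested.

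The markers were also compared by profile, as the distance between log2 values over the 5 libraries after each gene's mean was subtracted. This distance includes the difference between genotypes by which the markers are described above, so genes with like fold changes lie close by construction, and the ranks add no evidence of a shared profile. Among the 12856 other genes, counted from the nearest, *Myh11* had *Kcnj8* at rank 117, *Rgs5* at 142, *Abcc9* at 147 and *Pdgfrb* at 817. From *Pdgfrb*, *Abcc9* stood at rank 1875, *Cspg4* at 4009, *Kcnj8* at 4833, *Acta2* at 5007, *Rgs5* at 6538, *Tagln* at 10065 and *Myh11* at 11283. Counted the other way, *Pdgfrb* stood at rank 256 from *Abcc9*, 499 from *Rgs5* and 671 from *Kcnj8*, so the ranks depend on the gene they are counted from. From *Rgs5*, *Abcc9* stood at rank 158, and from *Kcnj8* its neighbour *Abcc9* stood at 212. *Acta2* was at rank 1156 from *Cspg4* and *Cspg4* at rank 950 from *Acta2*, so many other genes lay closer to each. From *Tagln*, *Myh11* stood at rank 12651.

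The nearest genes with a name were *Epha4* for *Rgs5*, at rank 1, *Zfp871* for *Abcc9*, *Srcap* for *Kcnj8* and *Irs2* for *Myh11*, each at rank 2, *Mll1* for *Pdgfrb*, at rank 16, and *Lclat1* for *Tagln*, at rank 17. For *Cspg4* and *Acta2* the nearest gene with a name was the other of these markers, and the genes that lay closer to them have no name here.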

How the data were processed

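The authors removed adaptors with cutadapt, quantified genes with RSEM over GRCm38, and used edgeR. The values the authors deposited are CPM over a scaled library size. Here limma 3.58.1 (R 4.3.3) compared log2(CPM + 0.5) of 3 transgenic and 2 WT pools by lmFit and by eBayes with its trend option, with no other term in the model. p-values were adjusted by Benjamini-Hochberg over all genes with at least 1 CPM in at least 2 libraries. The fit was first run on simulated counts with the same dispersion for all genes. That run checked the code and does not bear on the calls given here. Tables and figures were made with Python 3.11.15, pandas 2.3.3 and matplotlib 3.10.9.

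The 8 markers and the lists were chosen with earlier results of these data known. The genes named are the 8 markers, *Bmp2*, up to 6 called genes and the 2 largest others of each list, and the nearest named gene of each marker. Names of 406 identifiers came from the authors' list of differential genes, which holds 4 of the 8 markers. The names of *Kcnj8*, *Cspg4*, *Acta2* and *Tagln* rest on the identifiers given for the markers. Positions were looked up by symbol in RefSeq for GRCm38.p6. In every library 100% of the values were multiples of the smallest gap (tolerance 0.01), but the lowest value above 0 was 7 gaps in transgenic pool 1 and 3 gaps in WT pool 2. The values were therefore kept as CPM, and count tests were not run. Counting errors cover the sampling of reads only.

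The 13 alternatives changed the pseudocount to 0.1 or 1, dropped the filter or asked for a mean of at least 5 CPM, normalized by quantiles or to equal totals, left the trend out of limma, added the pool number as a block, or left out a single pool.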

Additional observations from a re-analysis of the deposited data

How the results depend on the processing

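limma called 362 genes (2.82% of all), 3 of the 8 mural markers and 10 of the 12 named genes of the lists, whose names come from the authors' differential genes. Without the variance trend it called 10, 0 (5 at an unadjusted p under 0.05, beside 14.4% of all genes) and 0. With the pool number as a replicate block it called 655 genes, 4 markers and 12 list genes. The labels give the pools only a number. Correlations of same-numbered deviations were -0.03 and -0.05. They are not independent, since the deviations of the 2 WT pools mirror each other, and the deviations also hold counting error. They therefore cannot settle whether same-numbered pools share a source, which was not tested. Transgenic pool 3 has no partner, so the fold changes under the block are those without that pool. Leaving out a single pool, the genes called ranged from 43 (without WT pool 2) to 464, the markers from 0 to 4, the list genes from 1 to 12, and the median log2 fold change of the markers from -0.34 to -0.25. With a WT pool left out, the lone WT pool is assumed to vary like the transgenic pools. In the other settings 288 to 394 genes were called. Over the 13 alternatives *Abcc9* and *Rgs5* were called in 10, *Myh11* in 9, *Pdgfrb* in 4 and the other 4 markers in 0. Of 273 comparisons of a named gene with an alternative, 220 kept sign and side of the threshold, 40 lost the call, 11 gained it and 2 changed sign. These counts and those over the 13 alternatives include the dropped filter, which repeated the main fit and so had to agree. Both changes of sign were of *Acta2*, which was never called. It stood at 0.0303 under the block, which is the same fold change as without transgenic pool 3. With a pool left out it ranged from -0.0813 (without transgenic pool 1) to 0.0303 (without transgenic pool 3). The cause of lost calls was not tested. The edgeR and DESeq2 alternatives were not run. With 3 and 2 pools and 63 reads for the lowest *Myh11* value, precision is limited.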
